A study of Mus musculus with 9 samples.

Results

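The EphA receptors and ephrin-A ligands measured here are 10 genes, the 6 receptors Epha3, Epha4, Epha5, Epha6, Epha7 and Epha8 and the 4 ligands Efna1, Efna2, Efna3 and Efna5. They were chosen by symbol and not by their values: every probe set whose annotation names 1 of them alone was taken. This gave 10 of 18193 genes and 27 of 45037 probe sets, a probe set being the group of short probes that reports 1 transcript on the array. RNA came from motor neurons of wild-type, untreated C57BL/6J male mice at postnatal day 7. The 3 pools were motor neurons at the L5 level of the spinal cord (L5), of the dorsolateral nucleus at the L6 level (DL) and of the oculomotor nucleus of the midbrain (OMN), with 3 arrays each. About 200 neurons of each pool were cut by laser from 12 µm sections stained with cresyl violet, which colours all neurons, and the labels give no further marker of motor neurons. The series compares motor pools that differ in vulnerability in amyotrophic lateral sclerosis (ALS), in which limb motor neurons are lost while eye and pelvic sphincter motor neurons are relatively spared.

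EphA receptors are tyrosine kinases of the cell surface, and ephrin-A ligands are held on the membrane of neighbouring cells by a lipid anchor. Contact sends a signal into the cell with the receptor and another into the cell with the ligand, and a growing axon that meets its partner mostly turns away. In the limb-level spinal cord, Epha4 on laterally placed motor neurons steers their axons into the dorsal limb, away from ephrin-A ligands in the ventral limb, and Epha4 has also been described as a modifier of ALS.

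Among the members, Epha6 and Epha7 were lower in both spinal pools than in OMN, and their promoter windows are shown for that reason. The windows run from 250 bases before to 50 bases after the annotated start (RefSeq, GRCm38.p6). For Epha6 it is chr16:60605482-60605781 on the minus strand, and for Epha7 the first of its annotated windows is chr4:28812881-28813180 on the plus strand. Both are printed 5′ to 3′ on the gene's own strand, with matches to the searched motifs in capitals.
Epha6: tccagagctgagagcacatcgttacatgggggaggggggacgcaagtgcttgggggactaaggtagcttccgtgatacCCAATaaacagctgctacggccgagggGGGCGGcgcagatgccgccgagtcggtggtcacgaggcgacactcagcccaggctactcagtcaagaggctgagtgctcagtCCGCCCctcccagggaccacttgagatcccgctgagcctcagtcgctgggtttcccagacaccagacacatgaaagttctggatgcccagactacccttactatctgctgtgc
Epha7: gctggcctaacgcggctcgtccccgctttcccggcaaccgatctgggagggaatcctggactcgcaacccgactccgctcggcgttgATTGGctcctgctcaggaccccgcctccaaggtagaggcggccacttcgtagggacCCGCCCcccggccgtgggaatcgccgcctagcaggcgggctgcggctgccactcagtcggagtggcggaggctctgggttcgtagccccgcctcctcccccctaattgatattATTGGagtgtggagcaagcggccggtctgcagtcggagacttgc
The motifs searched, on both strands, were the homeodomain core TAATTA, the CCAAT box, the GC box GGGCGG and the TATA box TATAAA, and none of these overlaps another. The Epha6 window held 1 CCAAT and 2 GGGCGG matches, and the Epha7 window held 2 CCAAT and 1 GGGCGG match. All 10 members had a window, 13 in all. TAATTA was found in 2 of the 13 windows, 1 of Efna1 and that of Epha5, against 5.29% of all 32851 windows. CCAAT was found in 6 of the 13 (5 genes) against 37.4% of all windows, GGGCGG in 12 (9 genes) against 35.7%, and TATAAA in 0 against 13.6%. The GC content of the members' windows was 60.3% to 84.3%, against a median of 52.7% over all windows. These matches describe the letters of the windows and are not binding sites.

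Each array had been scaled by the authors to 1 target, and median intensities were 32.0 to 34.3 in L5, 26.4 to 29.7 in DL and 33.6 to 35.5 in OMN. Between 67.0% and 71.5% of genes exceeded the noise level of 18.3, the highest intensity of 27 control probe sets for bacterial transcripts that were not added. The replicates of DL varied more than the others: the median SD of log2 intensity over 7123 bright genes was 0.204 in L5, 0.295 in DL and 0.171 in OMN. The 3'/5' ratio of the Gapdh control, a common sign of RNA breakdown, was 3.27 and 3.75 on DL arrays 1 and 3, and 2.33 to 2.67 on the other 7 arrays. The same ratio of the actin control was 0.807 to 0.934 on the other 7 arrays. DL array 1 lay within that range, at 0.934, and DL array 3 above it, at 0.995. Of the 8 motor neuron markers, 5 were above noise on all 9 arrays, among them Slc5a7, the choline transporter, at 2863.7 to 4979.2. Chat was at noise on all 3 L5 arrays and at most 24.5 elsewhere, Mnx1 was at noise on all 3 OMN arrays, and Isl2 exceeded noise on 1 of 3 OMN arrays. Summed microglia markers were 1319.7 to 1444.4 in L5, 839.7 to 1311.5 in DL and 1189.9 to 1639.4 in OMN, with 10 of 10 measured and Itgam at noise on every array. An array scaled in this way cannot tell fewer cells of a type from less RNA per cell.

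All 10 members exceeded noise on at least 3 arrays, and 8 did so on all 9, the exceptions being Epha6 and Epha8. A gene is called higher or lower here where limma's adjusted p, over all 18193 genes of a comparison, was under 0.05, and log2 differences are on the scale of log2(intensity + 16). In L5 against OMN 2 members were called, Epha6 and Epha7, both lower, where 1.22% of all genes were called lower, 0.945% higher and 2.17% in either direction. In L5 against DL 1 member, Epha6, was called higher, where 1.28% of all genes were called higher and 2.55% in either direction. In DL against OMN Epha6 and Epha7 were called lower, where 1.65% of all genes were called lower, 1.37% higher and 3.02% in either direction. The 3 comparisons share arrays and are not independent of one another. In L5 against the mean of DL and OMN, limma called 0 of the 10 members, where 2.13% of all genes were called, 1.03% higher and 1.1% lower. An unadjusted p under 0.05 was seen for 4 members, a count with no share over all genes to set beside it. The median log2 difference of the 10 members was -0.15 in L5 against OMN, beside 0.01 over all genes. It was 0.29 in L5 against DL, beside 0.06 over all genes, and -0.65 in DL against OMN, beside -0.04. The arrays of the pools did not overlap for 6 members in L5 against OMN (27.4% of all genes), 5 in L5 against DL (23.5%) and 3 in DL against OMN (21.1%).

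Tested one by one among all 45037, 4 of the 27 probe sets of the members were called lower in L5 against OMN (1.03% of all probe sets called), 1 higher in L5 against DL (1.37%), 4 lower in DL against OMN (1.92%) and 1 lower in L5 against the mean of DL and OMN (0.968%). They belong to Epha6 and Epha7. Arrays did not overlap for 15 of the 27 in L5 against OMN (23.4% of all probe sets), for 14 in L5 against DL (20.8%) and for 11 in DL against OMN (19.4%).

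**Figure D1:**
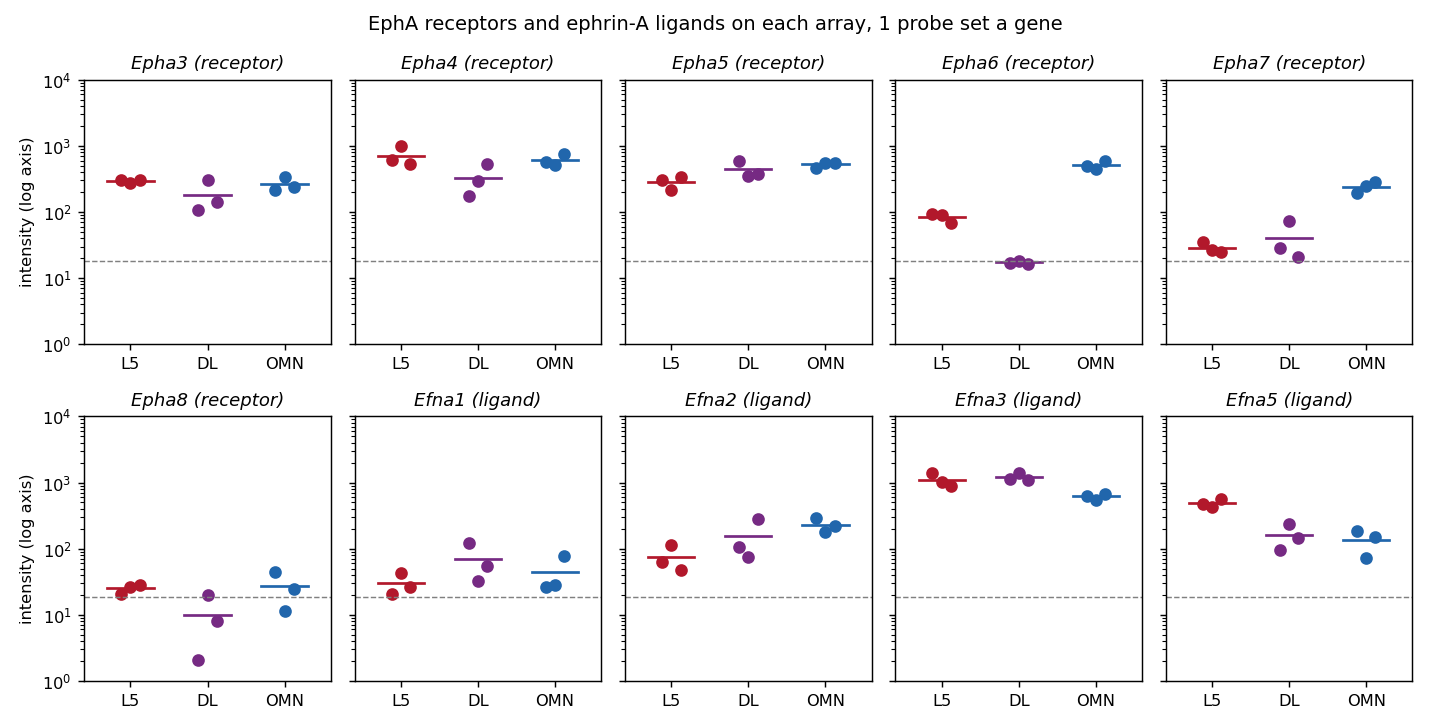
Intensity (log axis) of the 6 receptors and 4 ligands on each array, with pools on the horizontal axis in the order L5, DL and OMN; dots are arrays, bars are means of 3 arrays and the dashed line is the noise level of 18.3. The OMN arrays of Epha6 and Epha7 lie above every L5 and DL array, and the L5 arrays of Efna5 lie above every DL and OMN array. Heights in different panels come from different probes and are not comparable.

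Epha6, a receptor found mainly in the nervous system, showed 3 separate levels. Its only probe set (1421527_at) read 93.9, 91.3 and 68.3 in L5, 17.0, 18.4 and 16.4 in DL, and 490.2, 441.0 and 583.6 in OMN. No array of a pool overlapped those of another, and the DL arrays lay at the noise level, with 1 of 3 above it. The means were 84.5 ± 14.1 in L5, 17.3 ± 1.03 in DL and 505 ± 72.4 in OMN (SD, n = 3 each). Epha6 was lower in L5 than in OMN by a log2 difference of -2.37 ± 0.21 (SE, adjusted p = 0.00305). It was lower in DL than in OMN, by at least 27.4-fold when values under noise are set to the noise level (log2 difference -3.96 ± 0.21, adjusted p = 0.00034). Between the spinal pools, Epha6 was at least 4.56-fold higher in L5 than in DL (log2 difference 1.59 ± 0.21, adjusted p = 0.0149). The calls of L5 and DL against OMN were made under each of the 21 other settings tried, whereas the call of L5 against DL was made under 14. That last call was lost without L5 array 1, L5 array 2, DL array 1 or DL array 3, with adjusted p between 0.0504 and 0.091, and when the Gapdh ratio was added to the fit (adjusted p = 0.0872). The excitatory neuron markers, of which 2 of 3 were measured, followed the same order. Their summed intensity was 403.6 to 511.6 in L5, 150.1 to 296.9 in DL and 970.2 to 1219.9 in OMN. Slc17a6, the vesicular glutamate transporter of many brainstem and spinal neurons, made up nearly all of it, and Slc17a7 was at noise on every array. The part of these cells in the Epha6 differences was not tested.

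Epha7, a receptor known for repelling axons in the brain, separated OMN from the spinal pools. Its brightest probe set (1427528_a_at) read 35.0, 27.0 and 24.5 in L5, 29.0, 72.1 and 20.5 in DL, and 190.6, 248.5 and 281.0 in OMN. The L5 and DL arrays overlapped and lay a little above noise, and every OMN array lay above them. The means were 28.8 ± 5.48 in L5, 40.5 ± 27.7 in DL and 240.0 ± 45.8 in OMN (SD, n = 3 each). Epha7 was 8.31-fold lower in L5 than in OMN by geometric means (log2 difference -2.50 ± 0.32, adjusted p = 0.0122). It was 6.77-fold lower in DL than in OMN (log2 difference -2.27 ± 0.32, adjusted p = 0.0131). Between L5 and DL the log2 difference was -0.23 ± 0.32 (adjusted p = 0.756), so that neither direction was resolved. All 4 probe sets of Epha7 gave negative differences against OMN, from -2.50 to -1.54 for L5 and from -2.27 to -1.22 for DL. Of these, 3 were called lower in each comparison. The fourth (1443485_at) varied from 3.2 to 108.5 within DL. The Epha7 call in L5 against OMN was lost without L5 array 2 or 3 or any OMN array, with adjusted p between 0.0632 and 0.0848. In DL against OMN it was lost without any OMN array or DL array 1, with adjusted p between 0.0594 and 0.0685, and without DL arrays 1 and 3 together (adjusted p = 0.137). The summed oligodendrocyte markers, 10 of 11 measured, were 17682.6 to 18554.8 in L5 and 23498.7 to 26068.7 in DL, against 14605.2 to 16215.4 in OMN, with none at noise throughout a pool. These markers did not move as one: Mag, Ugt8a, Olig1 and Olig2 had higher means in OMN than in L5. For Olig1 and Olig2 the mean in OMN was the highest of all pools. The part of oligodendrocyte RNA in the Epha7 result was not tested.

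**Figure D2:**
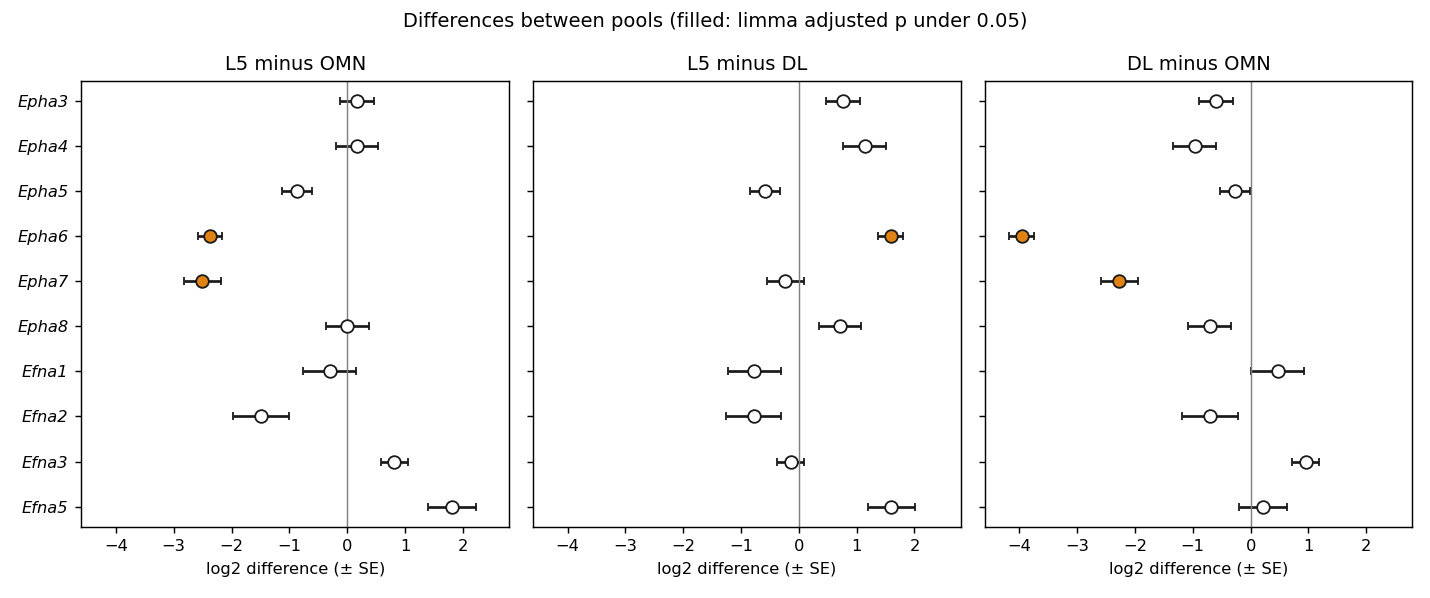
Log2 difference of each member in L5 minus OMN, L5 minus DL and DL minus OMN, with SE of the limma fit as bars; filled points have an adjusted p under 0.05. The filled points are Epha6 in all 3 panels and Epha7 in both comparisons with OMN.

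Epha4, the receptor of dorsal limb axon choice, was bright in all pools and passed the test in none of the comparisons. Its brightest probe set (1421929_at) read 600.6, 981.5 and 531.3 in L5, 173.9, 290.3 and 527.6 in DL, and 564.8, 520.1 and 744.5 in OMN. The L5 arrays lay above the DL arrays by a narrow margin, and the L5 and OMN arrays overlapped. The log2 difference of L5 minus DL was 1.14 ± 0.37 (adjusted p = 0.161), that of DL minus OMN was -0.97 ± 0.37 (adjusted p = 0.256) and that of L5 minus OMN was 0.17 ± 0.37 (adjusted p = 0.875). All 5 probe sets of Epha4 gave L5 minus DL between 1.03 and 1.41 with no overlap of arrays. By limma 0 of the 5 were called, and 4 had an unadjusted p under 0.05. When the log2 values of its probe sets were averaged, the adjusted p of L5 against DL was 0.0322. Probe sets of 1 gene share the same RNA and are not replicates.

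Epha3, a receptor also found on motor neurons of the medial column, had differences of the same sign as Epha4 between the spinal pools. Its brightest probe set read 307.3, 276.9 and 300.0 in L5, 107.0, 302.9 and 140.9 in DL, and 217.9, 334.6 and 240.9 in OMN. The 3 L5 arrays were close together, while DL array 2 lay with them and the other DL arrays lower. The log2 difference of L5 minus DL was 0.76 ± 0.29 (adjusted p = 0.22), and all 4 probe sets were positive, from 0.76 to 1.79. With the mean of its probe sets the adjusted p was 0.0272, the only one of the 21 settings that called Epha3 in that comparison. Over these settings the log2 difference of L5 minus DL ran from 0.09 to 1.22, and its lowest value with 1 array left out was 0.52. The lower DL arrays, 1 and 3, were those with the higher Gapdh ratios, and the part of RNA quality was not tested.

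Epha5, a receptor with a known part in topographic maps of the visual system, had its lowest arrays in L5. It read 309.0, 212.6 and 333.8 in L5, 598.1, 350.9 and 374.2 in DL, and 457.2, 556.9 and 557.4 in OMN. Every L5 array lay below every array of the other pools, and DL and OMN overlapped. The log2 difference was -0.86 ± 0.26 against OMN (adjusted p = 0.172) and -0.59 ± 0.26 against DL (adjusted p = 0.283), so that Epha5 was not called. Its 4 probe sets were all negative in L5 against OMN, from -0.86 to -0.17. For 1420557_at and 1435286_at, however, the L5 arrays overlapped those of both other pools.

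Epha8 was dim. Its only probe set read 20.3, 26.7 and 28.1 in L5, 2.1, 19.7 and 8.1 in DL, and 44.9, 11.6 and 24.5 in OMN, with 6 of 9 arrays above noise. Every L5 array lay above every DL array, by at least 1.32-fold by geometric means when values under noise are set to the noise level (log2 difference 0.71 ± 0.37, adjusted p = 0.355), and OMN overlapped both. Epha8 was not called in any comparison, and without DL arrays 1 and 3 together the log2 difference of L5 minus DL was -0.06.

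Among the ligands, Efna5, the ephrin-A that repels Epha4-bearing axons, had its highest arrays in L5. Its brightest probe set (1436866_at) read 472.9, 431.6 and 556.1 in L5, 94.3, 239.9 and 143.7 in DL, and 184.7, 71.6 and 148.6 in OMN. Every L5 array exceeded every other array, and DL and OMN overlapped. The means were 487 ± 63.4 in L5, 159 ± 74.0 in DL and 135 ± 57.8 in OMN (SD, n = 3 each). The log2 difference was 1.81 ± 0.41 against OMN (adjusted p = 0.0865), 1.60 ± 0.41 against DL (adjusted p = 0.0948) and 1.71 ± 0.35 against the mean of both (adjusted p = 0.0637), so that Efna5 missed the threshold in all 3. The second probe set gave 1.28 against OMN and 1.61 against DL, also with no overlap. Efna5 was called higher in L5 under 8 of 21 settings against OMN, 4 of 21 against DL and 6 of 20 against the mean. Without DL array 2 it was called in all 3, with adjusted p of 0.0321, 0.0448 and 0.0236 in the same order. Without DL arrays 1 and 3 together the log2 difference of L5 minus DL was 0.54. The 10 astrocyte markers, all measured and none at noise throughout a pool, summed to 22953.7 to 24912.5 in L5, 18572.1 to 21407.4 in DL and 18257 to 18813.8 in OMN. Without Aldoc, the brightest, the sums were 15826.4 to 17077.1 in L5, 13769.9 to 16043.4 in DL and 12711.4 to 13376.4 in OMN, so that L5 and DL overlapped. The markers did not move as one: in L5 against DL S100b was called higher and Gfap lower (log2 difference -2.14 ± 0.31, adjusted p = 0.019), and Aldh1l1 had its highest mean in OMN. The part of astrocyte RNA in the Efna5 values was not tested.

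Efna3, a ligand of the same family, had its lowest arrays in OMN. It read 1411.2, 1023.5 and 896.9 in L5, 1146.2, 1413.7 and 1077.2 in DL, and 627.8, 544.8 and 673.4 in OMN. The spinal pools overlapped, and every spinal array lay above every OMN array. The log2 difference was 0.81 ± 0.23 for L5 minus OMN (adjusted p = 0.15) and 0.96 ± 0.23 for DL minus OMN (adjusted p = 0.0882), and its second probe set gave 1.23 and 1.16 in the same order, again without overlap. Efna3 was not called in either, though L5 minus OMN was called under 1 of the 21 other settings, with trend and robust variances (adjusted p = 0.0409), and DL minus OMN under 2, that one (0.0185) and the fit without the replicate block (0.0433). The 8 motor neuron markers summed to 17958 to 19500.7 in L5 and 15110.8 to 19400.8 in DL, against 13959.2 to 14817.8 in OMN. This order rested on Prph, the brightest of them: the other 7 summed to 7843.9 to 9220.5 in L5 and 7581.3 to 10173.2 in DL, against 9163.5 to 9885.1 in OMN. In L5 against OMN Prph and Mnx1 were called higher and Isl1 lower. The part of these markers in the Efna3 values was not tested.

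Efna2 read 61.8, 114.9 and 48.4 in L5, 107.6, 73.9 and 285.7 in DL, and 291.9, 180.8 and 221.5 in OMN. The L5 arrays lay below the OMN arrays, and DL spanned both. The log2 difference of L5 minus OMN was -1.49 ± 0.48 (adjusted p = 0.199). Efna1, a ligand best known from blood vessels, read 20.5, 43.6 and 26.6 in L5, 120.9, 32.4 and 53.8 in DL, and 26.7, 28.1 and 76.4 in OMN. In this probe set of Efna1, its brightest, all pools overlapped. In the dimmer 1448510_at every OMN array lay below every L5 and DL array, though it was not called. The 2 probe sets differed in sign for L5 minus OMN, -0.30 and 0.55.

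**Figure D3:**
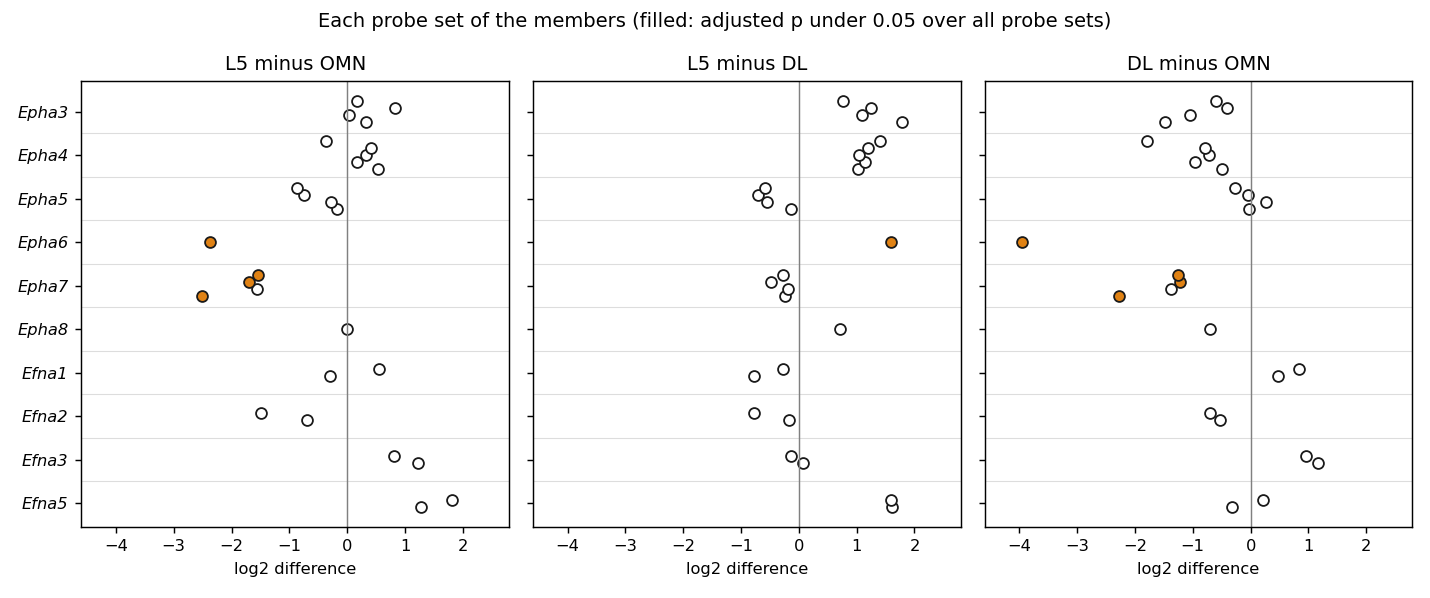
Log2 difference of each of the 27 probe sets of the members in L5 minus OMN, L5 minus DL and DL minus OMN; filled points have an adjusted p under 0.05 over all 45037 probe sets. The 5 probe sets of Epha4 lie together between 1.03 and 1.41 in L5 minus DL, unfilled, and the 4 of Epha7 lie between -2.50 and -1.54 in L5 minus OMN, 3 of them filled.

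The order of the pools by mean intensity differed among the members. For the receptors it was L5, OMN, DL from high to low for Epha3 and Epha4, OMN, L5, DL for Epha6 and Epha8, and OMN, DL, L5 for Epha5 and Epha7. Only for Epha6 did neighbours in this order never overlap. For Epha7 the step between OMN and DL was clear of overlap, and for Epha5 and Epha8 the step between the lower pools. For the ligands the order was L5, DL, OMN for Efna5, DL, L5, OMN for Efna3, DL, OMN, L5 for Efna1 and OMN, DL, L5 for Efna2. The step from L5 to DL for Efna5 and from L5 to OMN for Efna3 did not overlap, and the other steps of the ligands did. Between L5 and DL the receptors had a median log2 difference of 0.74 and the ligands of -0.46, and between L5 and OMN of -0.43 and 0.26, and the direction of a list's median was not tested.

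Among the genes whose centred log2 values over the 9 arrays lay nearest those of Epha6, out of 8878 with a mean over 100, were Irx5, a homeodomain transcription factor, Pde3a, a phosphodiesterase, and Dach2, a nuclear cofactor. Their root mean square differences from Epha6 were 0.26 for Irx5, 0.37 for Pde3a and 0.48 for Dach2. Irx5 read 52.9 to 72.8 in L5, 5.5 to 18.8 in DL and 348.7 to 441.0 in OMN, the same order of pools without overlap. Nearest to Epha7 were Gabrb2, a GABA-A receptor subunit, at 0.40, Pvalb, the calcium buffer parvalbumin, at 0.43 and Mn1, a transcriptional regulator, at 0.46. Pvalb read 540.6 to 905.4 in L5, 688.2 to 846.4 in DL and 5099.7 to 5393.9 in OMN. Among the other members the nearest to Epha6 was Epha7, at 0.89. These likenesses are descriptions over 9 arrays.

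The other A-class genes, Epha1, Epha2, Epha10 and Efna4, were all measured, and 0 of 4 were called in any comparison by limma. Between DL and OMN 2 of the 4, Epha2 and Epha10, had an unadjusted p under 0.05, and in the other comparisons 0 did. Epha2 and Efna4 lay at or near noise. Epha10, a receptor that lacks kinase activity, read 391.3, 386.6 and 437.7 in L5, 464.9, 245.3 and 108.9 in DL, and 519.1, 434.0 and 734.2 in OMN, and all pools overlapped.

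Among the B-class ephrins, which span the membrane, Efnb2 and Efnb3, which also bind Epha4, were lower in L5 than in OMN. Efnb3 read 62.0, 54.9 and 100.3 in L5, 191.3, 376.0 and 247.5 in DL, and 266.2, 284.3 and 330.5 in OMN. Every L5 array lay below every array of the other pools, which overlapped. Efnb3 was lower in L5 than in OMN (log2 difference -1.84 ± 0.27, adjusted p = 0.0229) and than in DL (-1.69 ± 0.27, adjusted p = 0.0286). Efnb2 read 219.3, 233.3 and 182.8 in L5, 654.4, 369.5 and 414.1 in DL, and 522.8, 524.2 and 546.7 in OMN, and again no L5 array overlapped another pool. It was lower in L5 than in OMN (log2 difference -1.27 ± 0.23, adjusted p = 0.0438), and against DL the difference was -1.08 ± 0.23 (adjusted p = 0.0654). Of the 3 ephrin-B ligands, 2 were thus called lower in L5 against OMN (1.22% of all genes) and 1 against DL (1.28%). In DL against OMN limma called 0 (3.02% of all genes in either direction), and 0 had an unadjusted p under 0.05. The Efnb3 call against OMN was lost without any 1 of the L5 or OMN arrays (adjusted p 0.0773 to 0.123), the call against DL without any 1 of the 9 arrays (0.0508 to 0.123), and the Efnb2 call without any L5 or OMN array or DL array 3 (0.0703 to 0.197). Of the 21 other settings, 14 called Efnb3 against OMN, 9 called it against DL and 11 called Efnb2 against OMN. The remaining probe sets of Efnb2 were negative in L5 against OMN, and 0 of its 4 were called by limma among all probe sets, while 2 had an unadjusted p under 0.05. The summed endothelial markers, 8 of 8 measured and none at noise throughout a pool, were also lowest in L5, 704.4 to 1124, against 1414.3 to 1779.2 in DL and 1244.9 to 1536.8 in OMN. Not all of them had this order: Pecam1 and Vwf had their lowest means in DL, and Tek in OMN. The part of endothelial RNA in the ephrin-B values was not tested.

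Of the 5 EphB receptors 4 were measured, and limma called 0 in any comparison. An unadjusted p under 0.05 was seen for 2 in L5 against OMN, 1 in L5 against DL and 1 in DL against OMN. Ephb1, which guides motor axons into the ventral limb, read 451.5, 423.8 and 512.7 in L5, 746.1, 702.7 and 1014.3 in DL, and 799.6, 909.0 and 878.2 in OMN. Its L5 arrays lay below all others, with log2 differences of -0.88 ± 0.19 against OMN (adjusted p = 0.0772) and -0.79 ± 0.19 against DL (adjusted p = 0.0825).

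**Figure D4:**
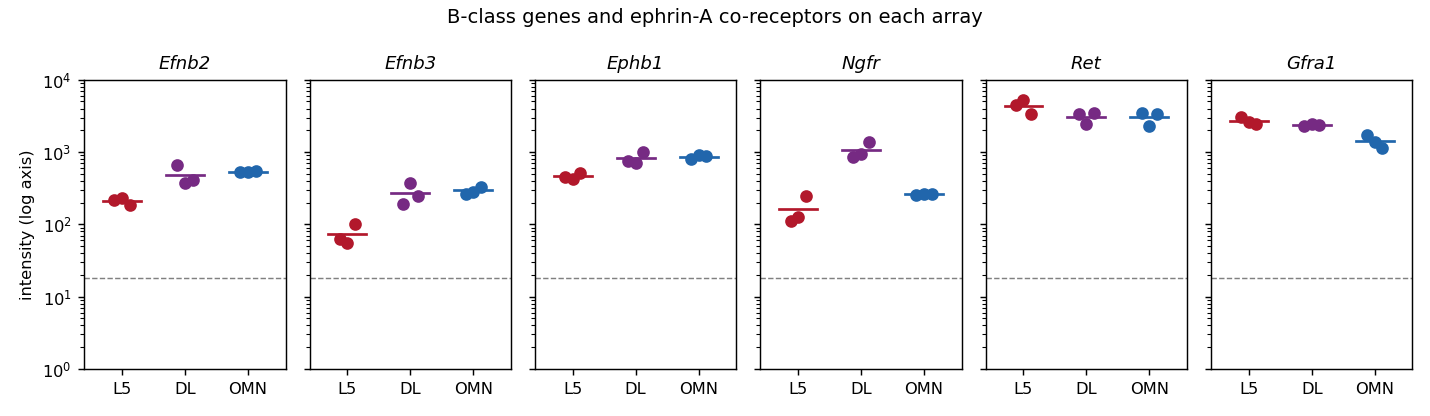
Intensity (log axis) on each array of the B-class genes Efnb2, Efnb3 and Ephb1 and of the co-receptor genes Ngfr, Ret and Gfra1, with pools in the order L5, DL and OMN; dots are arrays, bars are means of 3 arrays and the dashed line is the noise level of 18.3. The L5 arrays of Efnb2, Efnb3 and Ephb1 lie below those of the other pools, and the DL arrays of Ngfr lie above all others.

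Ephrin-A ligands have no part inside the cell and signal through partners, among them the neurotrophin receptor Ngfr in retinal axons and the GDNF receptor Ret with Gfra1 in limb motor axons. Ngfr read 112.9, 128.0 and 248.9 in L5, 843.4, 947.1 and 1364.2 in DL, and 251.9, 266.0 and 263.8 in OMN. In this probe set, the brightest of 3, no pool overlapped another, and DL stood above both others. Ngfr was lower in L5 than in DL (log2 difference -2.62 ± 0.24, adjusted p = 0.00493) and higher in DL than in OMN (1.92 ± 0.24, adjusted p = 0.0082). Both calls held with each array left out in turn, and both were lost without DL arrays 1 and 3 together (adjusted p 0.0897 and 0.109). The call of DL against OMN was also lost when only those pools were fitted (adjusted p = 0.057) and with the Gapdh ratio in the fit (0.0549). The summed oligodendrocyte and inhibitory neuron markers were highest in DL as well, also without the brightest of each. Olig1 and Olig2, of the oligodendrocyte list, instead had their lowest means in DL. The inhibitory sum was 1627.7 to 2231.6 in L5, 5017 to 5875 in DL and 1852 to 2673.9 in OMN, with 4 of 6 markers measured, and the part of either cell type in the Ngfr result was not tested. Ret read 4465.4, 5266.4 and 3330.7 in L5, 3325.7, 2467.3 and 3436.1 in DL, and 3515.3, 2305.3 and 3384.2 in OMN, with overlap among all pools. Gfra1 read 3040.5, 2577.7 and 2404.9 in L5, 2275.3, 2430.3 and 2402.2 in DL, and 1722.3, 1364.7 and 1150.3 in OMN, and its L5 minus OMN difference of 0.93 ± 0.20 missed the threshold (adjusted p = 0.073). It was called under 5 of the 21 other settings, and 1 of the 3 probe sets of Gfra1 was called higher in L5 and in DL against OMN (log2 differences 1.32 ± 0.18 and 1.22 ± 0.18, adjusted p 0.0238 and 0.0218 over all probe sets). Of the 5 co-receptor genes, each taken by its brightest probe set, only Ngfr was called with all arrays. The shares of all genes called were 2.55% in L5 against DL and 3.02% in DL against OMN.

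Downstream of EphA receptors, 20 of 22 listed signalling genes were measured. By limma 1 was called lower in L5 against OMN (1.22% of all genes) and 1 higher in L5 against DL (1.28%). In DL against OMN limma called 0 (3.02% of all genes in either direction). An unadjusted p under 0.05 was seen for 4 in L5 against OMN, 5 in L5 against DL and 4 in DL against OMN. These last counts have no share over all genes to set beside them. Chn2, an enzyme that switches off Rac, read 143.8, 150.5 and 117.8 in L5, 162.7, 183.5 and 194.9 in DL, and 384.4, 331.4 and 342.6 in OMN. It was lower in L5 than in OMN (log2 difference -1.27 ± 0.19, adjusted p = 0.0252), and the call was lost without any 1 of the L5 or OMN arrays (0.107 to 0.129). Its relative Chn1, which acts behind Epha4 in locomotor circuits, read 1636.7, 1495.7 and 1316.9 in L5, 1672.3, 1197.0 and 812.5 in DL, and 1182.3, 815.3 and 875.7 in OMN. Chn1 was not called (L5 minus OMN 0.64 ± 0.22, adjusted p = 0.216).

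Sipa1l1, a Rap regulator that binds Epha4, read 245.5, 250.4 and 246.7 in L5, against 152.5, 53.7 and 78.9 in DL. It was higher in L5 than in DL at the edge of the threshold (log2 difference 1.35 ± 0.26, adjusted p = 0.0497), and the call was lost without any 1 of the 9 arrays (0.055 to 0.187), and made under 5 of the 21 other settings. Ngef, the exchange factor that Epha4 uses to collapse growth cones, read 89.8, 76.0 and 51.4 in L5, 55.2, 110.8 and 81.1 in DL, and 35.8, 39.8 and 49.6 in OMN, and was not called.

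Of 7 genes that end Eph signalling, all were measured and 1 was called, Ptpro, a phosphatase that acts on Eph receptors in the chick retina. The call was in DL against OMN, where 3.02% of all genes were called. Ptpro read 787.2, 657.7 and 713.6 in L5, 1371.5, 1027.4 and 1499.0 in DL, and 614.0, 450.9 and 518.6 in OMN. It was higher in DL than in OMN (log2 difference 1.27 ± 0.19, adjusted p = 0.0153), a call lost without any OMN array or DL array 1 or 3 (0.0574 to 0.0982) and made under 12 of the 21 other settings. Adam10, the protease that cuts ephrin-A ligands, read 354.5, 317.8 and 405.7 in L5, against 662.1, 599.5 and 568.5 in DL, with no overlap and a log2 difference of -0.74 ± 0.23 (adjusted p = 0.152). Its probe sets disagreed: another gave 0.60 ± 0.22 for L5 minus DL, with every L5 array above every DL array (adjusted p = 0.243 over all probe sets), so that no direction is given for Adam10.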

How the data were processed

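RNA from 9 samples, 3 for each of 3 motor neuron pools, was amplified from at least 1.5 ng and hybridised to Affymetrix mouse genome arrays, per the labels' protocols. The authors deposited 1 table of processed intensity values on a linear scale for 45101 probe sets. With 2% of values trimmed at each end, every array averaged 250.0. The software behind these values: not given in the sources used here. Scaled values carry no depth, and the number of arrays limits the precision.

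After removal of 64 control probe sets, the platform annotation gave 1 gene for 34945 of 45037 probe sets, several for 932 and none for 9160. The probe set of highest mean stood for its gene. Values were converted to log2(intensity + 16) and fitted in R 4.3.3 by limma 3.58.1 (lmFit, contrasts.fit, eBayes), all 9 arrays together, with pool as factor and the replicate number as a block. Per the protocol every animal provided the 3 pools, but the labels do not tie equal numbers to 1 animal. P-values were adjusted by Benjamini-Hochberg over all genes, or over all probe sets in a second fit. Errors are SE of the fit for log2 differences and SD over 3 arrays for intensities. With equal errors assumed for all pools, those of differences with DL can be too small. The scripts were tested on simulated data. Noise was set at 18.3 with the values known, and where a pool's mean lay under it the fold is a lower bound.

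The members, the lists and the rules were chosen with earlier results of these data known. The genes named are the 10 members, up to 4 called genes of each list of related genes, 6 partners (Ngef, Chn1, Adam10, Ret, Gfra1, Ngfr) and the 3 genes nearest each called member. Epha2, Epha10, Efna4 and Ephb1 and the markers Slc5a7, Chat, Mnx1, Isl1, Isl2, Prph, Aldoc, S100b, Gfap, Aldh1l1, Mag, Ugt8a, Olig1, Olig2, Itgam, Pecam1, Vwf, Tek, Slc17a6 and Slc17a7 were named in addition, after their values were seen. Alternatives changed the pseudocount, the scaling, the choice of probe sets, a noise filter, the block, the arrays fitted, array weights, the variance model and an RNA quality term, or left out arrays.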

Additional observations from a re-analysis of the deposited data

How the results depend on the processing

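The counts of called members moved with the settings, and none of the member differences called with all arrays changed direction. In L5 against OMN, with 2 members called, a pseudocount of 1 gave 1, a variance model with trend and robust estimation gave 4, and leaving out 1 array at a time gave 1 to 3. In L5 against DL, with 1 called, the mean of all probe sets gave 4, the fit without the replicate block 2 and the trend and robust model 2. Fitting only the pools compared, the Gapdh ratio as a covariate, and leaving out DL arrays 1 and 3 each gave 0, and leaving out 1 array at a time gave 0 to 2. In DL against OMN, with 2 called, a pseudocount of 1, fitting only the pools compared, the Gapdh ratio and leaving out DL arrays 1 and 3 each gave 1, the fit without the replicate block and the trend and robust model each gave 3, and leaving out 1 array at a time gave 1 to 2. In L5 against the mean of both, with 0 called, a pseudocount of 64, the mean of all probe sets, the fit without the replicate block, array weights and the trend and robust model each gave 2, a filter for genes above noise gave 1, and leaving out 1 array at a time gave 0 to 1. With all arrays, 4 member probe sets were called in at least 1 of the 3 comparisons between single pools. For that count a pseudocount of 1 left 1, the trend and robust model gave 9, and leaving out 1 array at a time gave 1 to 5. The Epha6 call in L5 against DL was also lost when only those pools were fitted (adjusted p = 0.0854) and without DL arrays 1 and 3 (0.141). The Epha7 calls were lost at a pseudocount of 1 (0.0645 in L5 and 0.0633 in DL against OMN), and in DL against OMN also when only those pools were fitted (0.0857) and with the Gapdh ratio (0.0764). Over all genes the calls ranged from 83 to 946 in L5 against OMN, from 0 to 1153 in L5 against DL, from 120 to 880 in DL against OMN, and from 37 to 1070 in L5 against the mean of both. Fitting only the pools compared gives no value for that last comparison. The cause of these shifts was not tested, and the fits that left arrays out also had fewer arrays.

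The values gave no sign that equal replicate numbers pair the arrays. Over 9122 bright genes, deviations from the pool mean correlated between -0.054 and 0.037 for the 9 pairs of equal number and between -0.057 and 0.040 for the 18 pairs of different number. Without the replicate block, limma called 806 genes in L5 against DL, where the block gave 464, and 695 in L5 against the mean of both, where the block gave 387. Brightness over noise limits what can be said of Epha8, Efna1 and the spinal levels of Epha7.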
